A study of Mus musculus with 5 samples.

Results

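Cycling macrophages were the cells that carried the transcripts of tissue macrophages together with those of dividing cells. A macrophage was a cell with at least 20 UMIs of the complement genes C1qa, C1qb and C1qc together, at most 1 of the T cell receptor complex genes Cd3d, Cd3e and Cd3g, and at most 1 of the B cell gene Cd79a. A UMI is 1 counted RNA molecule. A macrophage was cycling with at least 3 UMIs of Mki67, which encodes the proliferation antigen Ki-67, and Top2a, which encodes the topoisomerase that untangles replicated DNA. The gate held 2606 macrophages, of which 346 were cycling, 1810 had no UMI of either gene and were the comparison, and 450 had 1 or 2. The cycling cells were 1.61% of the 21531 cells of the series. The gate and the threshold are measured values of the same cells, so the members were chosen by readout and the differences between the classes are a description, with no test.

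The study sorted live CD45+ cells, the immune cells, from tumour, dLN and non-dLN of 3 mice, which gave 9 samples that were run as 1 pool. Mouse 1 had received nivolumab_mIgG1_D265A, mouse 2 nivolumab_mIgG1 and mouse 3 the isotype control MOPC21. Nivolumab is an antibody against PD-1, and the D265A change in an antibody's Fc part is known to weaken its binding to Fc receptors. Strain, age and tumour line are not given in the sources used here. Each cell carries 1 of 9 hashtags, numbered here by their order in the table. The sources used here did not tie a hashtag to a mouse or a site, so populations 1 to 9 are called by their number and no treatment or site is compared.

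Population 1 held 43 of the cycling macrophages, population 4 held 78 and population 7 held 222. Another 2 lay in population 2 and 1 had no hashtag, so the comparisons below rest on 343 cells. Populations 3, 5, 6, 8 and 9 held none, which allows up to 0.129% of the cells of population 3 and 0.116% of those of population 9. Each population is 1 sample without a replicate. All intervals are 95% intervals that cover counting error only, not the spread between animals or, for gene ratios, between cells.

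Macrophages live in every tissue and engulf dead cells, particles and antibody-coated targets. In tumours many arise from Ly6C-positive monocytes that leave the blood and lose monocyte genes as they mature, and mature macrophages can also divide in place. A dividing cell copies its DNA in S phase under factors of the E2F family and then makes the genes of G2 and mitosis, whose promoters often hold CCAAT boxes and the CHR element TTTGAA.

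The label was checked against markers. Adgre1, which encodes the macrophage surface protein F4/80 and was not used by the gate, had a UMI in 94.5% of the cycling cells and in 86.3% of the comparison cells. Its level was 330, 240 and 289 CPM in cycling cells of populations 1, 4 and 7 and 387, 291 and 312 CPM in comparison cells. CPM here is a gene's UMIs per 1000000 gene UMIs of the class. Cells thinned at random to 5000 UMIs each held an Adgre1 UMI in 73.2, 70.3 and 70.3% of cycling and 75.9, 65.1 and 71.3% of comparison cells. Both Mki67 and Top2a were seen in 289 of the 346 members, Mki67 alone in 40 and Top2a alone in 17. Their summed count ran from 3 to 91 with a median of 7.5. The rule used both genes, so these counts describe the members and do not check the label.

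Cycling cells were deeper than the comparison cells. Their median was 17400 UMIs in population 1, 22870.5 in population 4 and 25455 in population 7, beside 11895, 15583.5 and 16342 in the comparison. The median C1q sum moved with the depth, at 234, 358.5 and 476.5 UMIs beside 173, 241.5 and 303.5. As a level, C1q was nearly even between the classes, with a ratio of 0.97 for C1qa, 0.96 for C1qb and 0.99 for C1qc. Depth also decides how often a cell reaches 3 UMIs, so the share of macrophages that were cycling is given below at own depth and after thinning.

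Markers of other cells were low. The summed level of the 9 T cell markers in the table was 46.8, 66.6 and 42.4 CPM in cycling cells and 70.5, 137 and 63.8 CPM in the comparison. The 5 B cell markers in the table summed to 48.1, 14.7 and 41.5 CPM, beside 40.1, 21.2 and 41.2 CPM. These 2 lists include Cd3d, Cd3e, Cd3g and Cd79a, which the gate held low in both classes, so those members are no check. Most of the T cell sum was Il7r, which the gate did not use, at 29.9, 54.7 and 28.6 CPM beside 47.7, 114 and 47.2 CPM. The 7 NK cell markers summed to 67.7, 109 and 68.2 CPM, beside 117, 114 and 66.7 CPM. Of the 5 neutrophil markers, S100a8, S100a9, Retnlg and Cxcr2 were at 0 in the cycling cells. So were the keratins Krt8, Krt18 and Krt19, the stromal genes Col1a1 and Pdgfrb and all 4 red cell globins. Retnlg, the keratins and the globins were at 0 in the comparison too, and the others at 0 had at most 10 UMIs there. These zeros thus do not set the classes apart. The remaining neutrophil marker, Csf3r, stood at 31.2, 26.5 and 15.1 CPM, beside 65.2, 49.2 and 24.2 CPM. The 6 stromal or endothelial markers summed to 66.3, 45.7 and 19.5 CPM, mostly Pecam1, beside 91.7, 72.4 and 25.7 CPM. The 5 epithelial or tumour markers summed to 10.4, 5.64 and 11.2 CPM, mostly Cdh1, beside 4.87, 5.84 and 9.47 CPM. The 8 dendritic cell markers summed to 79.4, 45.7 and 54.8 CPM in cycling cells and 59.4, 54.1 and 24.6 CPM in the comparison. Of these, Xcr1 was higher in each population, at 33.8, 14.7 and 9.22 CPM beside 19.5, 8.60 and 6.10 CPM. Its ratio was 1.62 (1.28 to 2.05), with at most 9.80% of the members' UMIs from 1 cell. Clec9a went both ways, at 37.7, 25.9 and 14.2 CPM beside 33.6, 39.3 and 10.7 CPM. Whether some members were dendritic cells was not tested. Of Fscn1 and Ccr7, genes of migratory dendritic cells, 1 cell of population 7 each held 96.4% and 79.1% of the members' UMIs, and 1 cell held 90.5% of those of the cytotoxic gene Gzma. No cycling macrophage was among the 184 cells called doublets. Only 0.855% of cells were called, beside an expected 8%, so doublets could have gone uncalled among the members.

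The upstream sequences of 5 genes of the division programme are shown because the programme's parts differ in their promoter words and in their levels below. Each is the 250 bases before the RefSeq start (GRCm38.p6), read 5′ to 3′ on the gene's strand, with the CCAAT box, the word TTTGAA and the E2F words TTTCCCGC, TTTCGCGC, TTTGCCGC and TTTGGCGC in capitals on either strand. Top2a, used by the rule, lies at chr11:99024190-99024439 on the minus strand. The mitotic genes are Cdc20, which activates the anaphase-promoting complex (chr4:118437344-118437593, minus), Cdk1, the kinase that drives mitosis (chr10:69352913-69353162, minus), and its partner cyclin Ccnb2 (chr9:70421555-70421804, minus). Mcm5, a subunit of the helicase that opens DNA for replication, stands for S phase (chr8:75109259-75109508, plus).
Top2a: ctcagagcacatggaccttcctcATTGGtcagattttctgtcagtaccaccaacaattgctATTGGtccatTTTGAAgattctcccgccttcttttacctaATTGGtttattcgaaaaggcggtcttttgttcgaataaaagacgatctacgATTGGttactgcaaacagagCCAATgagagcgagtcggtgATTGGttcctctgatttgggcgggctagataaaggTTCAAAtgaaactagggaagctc
Cdc20: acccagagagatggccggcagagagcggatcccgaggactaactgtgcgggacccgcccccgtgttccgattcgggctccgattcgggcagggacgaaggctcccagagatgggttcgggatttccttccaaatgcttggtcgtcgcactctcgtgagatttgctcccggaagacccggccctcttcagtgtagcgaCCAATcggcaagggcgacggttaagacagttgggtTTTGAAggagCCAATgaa
Cdk1: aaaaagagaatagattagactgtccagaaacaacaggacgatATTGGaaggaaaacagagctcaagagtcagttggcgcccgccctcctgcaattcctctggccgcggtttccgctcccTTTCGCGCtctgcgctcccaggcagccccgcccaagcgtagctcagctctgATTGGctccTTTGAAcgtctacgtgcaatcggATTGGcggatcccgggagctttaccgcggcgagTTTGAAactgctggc
Ccnb2: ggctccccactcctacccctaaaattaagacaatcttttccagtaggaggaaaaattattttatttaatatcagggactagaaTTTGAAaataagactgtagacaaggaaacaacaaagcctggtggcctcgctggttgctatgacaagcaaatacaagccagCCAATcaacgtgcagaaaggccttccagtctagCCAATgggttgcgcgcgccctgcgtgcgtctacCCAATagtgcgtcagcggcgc
Mcm5: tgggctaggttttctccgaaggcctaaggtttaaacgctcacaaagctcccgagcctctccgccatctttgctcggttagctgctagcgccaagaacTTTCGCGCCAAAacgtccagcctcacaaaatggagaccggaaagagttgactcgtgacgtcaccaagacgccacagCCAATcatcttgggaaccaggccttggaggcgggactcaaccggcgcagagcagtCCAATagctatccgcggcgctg
Top2a held 6 CCAAT matches and 2 of TTTGAA, and none of the E2F words. Cdc20 held 2 and 1, Ccnb2 held 3 and 1, and Cdk1 held 3 and 2 with 1 E2F word. Mcm5 held 2 CCAAT matches, no TTTGAA and 2 E2F words that overlap each other on opposite strands. Of all 27025 upstream regions of this length, 34.5% held CCAAT, 16.3% TTTGAA, 1.91% an E2F word and 5.73% both CCAAT and the word TTTGAA. Of the 8264 regions of genes measured here, 37.0% held CCAAT, 10.6% TTTGAA, 3.74% an E2F word and 4.05% both. Of the 49 G2 and M phase genes with a matched region, 75.5% held CCAAT, 34.7% TTTGAA, 4.08% an E2F word and 30.6% both of the former words. Of the 35 matched S phase genes, 68.6% held CCAAT, 14.3% TTTGAA, 25.7% an E2F word and 11.4% both of the former words. The share with an E2F word in the G2 and M phase list was near that of measured genes. CCAAT was also in 9 of 16 regions of respiratory chain genes, 6 of 11 of monocyte genes and 4 of 5 of MHC class II genes. A match is only these letters in this window.

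Cycling cells made up 9.56% (7.00 to 12.7%) of the 450 macrophages of population 1, 9.69% (7.73 to 11.9%) of the 805 of population 4 and 16.9% (14.9 to 19.0%) of the 1313 of population 7. The intervals of populations 1 and 4 overlapped almost fully and lay below that of population 7. After thinning to 5000 UMIs the shares were 4.43% (2.65 to 6.92%), 3.74% (2.50 to 5.36%) and 8.14% (6.69 to 9.78%), with 44, 56 and 47 shallower cells left out. Population 7 stayed highest, and its interval then overlapped that of population 1. The share with any UMI of Mki67 or Top2a was 26.4, 26.7 and 34.7% at own depth and 18.5, 15.0 and 21.2% after thinning.

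Cycling macrophages were 2.09, 3.39 and 9.00% of all cells of populations 1, 4 and 7. Of all cells with at least 3 UMIs of Mki67 and Top2a, they were 38.1% of 113 in population 1, 62.9% of 124 in population 4 and 75.0% of 296 in population 7. Both sets of shares were taken at the cells' own depth only, where macrophages reach 3 UMIs more easily. Comparison macrophages had medians of 11895, 15583.5 and 16342 UMIs, beside 5058, 5029 and 5773 in T cells with no UMI of either gene. Macrophages themselves were 21.9, 34.9 and 53.2% of the cells of those populations.

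CD23-positive B cells were read as a reference for both genes, without a check that they were resting. Of 4008 such cells, 7.81% held any UMI of Mki67 or Top2a and 1.65% held at least 3, at a median of 3117.5 UMIs, beside 30.5% and 13.3% of the macrophages at a median of 16269. After thinning to 2000 UMIs, 4.91% (4.23 to 5.66%) of the B cells and 11.1% (9.93 to 12.4%) of the macrophages held any UMI. At that depth 0.682% (0.442 to 1.00%) of the B cells and 1.86% (1.37 to 2.46%) of the macrophages held at least 3, so the macrophage share was above that of these B cells. How much of either share came from free RNA was not tested.

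The level of the other cycle genes was graded across the threshold, for S phase not in every population. The summed level of the 59 G2 and M phase genes was 2118 CPM in macrophages with no Mki67 or Top2a UMI, 2731 CPM with 1 UMI and 3893 CPM with 2. Just inside the threshold it was 5467 CPM with 3 UMIs and 7584 CPM with 4, and it was 12939 CPM with 5 or more. The 47 S phase genes summed to 710, 1123, 1624, 2173, 2492 and 3947 CPM over the same steps. In population 4 the S phase sum was 1474 CPM with 2 UMIs, 919 CPM with 3 and 1062 CPM with 4, so it fell across the threshold, while populations 1 and 7 stood higher with 3 UMIs than with 2. For G2 and M phase no gap marked the threshold, and 65 of the members had exactly 3 UMIs while 107 macrophages had exactly 2. At the edge of the C1q gate, 10 cycling cells had C1q sums of at least 20 and under 30, and 8 other cells that met the remaining limits had sums of at least 10 and under 20.

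**Figure D1:**
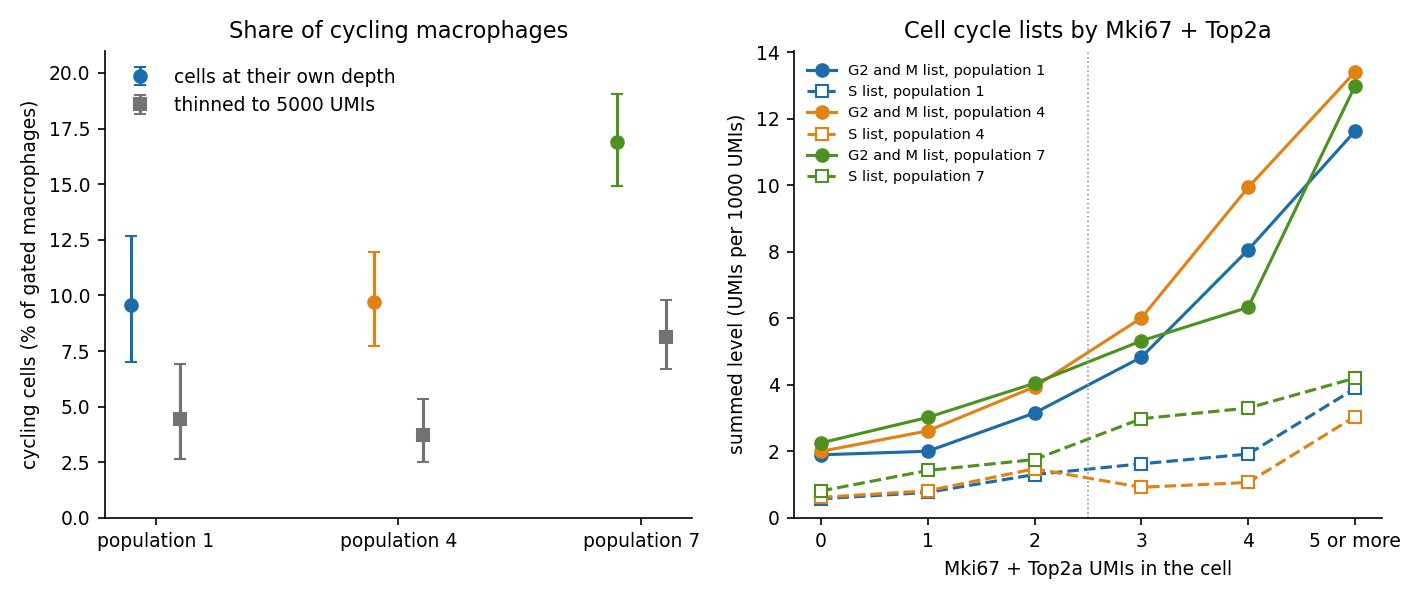
Left, percentage of gated macrophages that were cycling in populations 1, 4 and 7 with exact 95% binomial intervals, at the cells' own depth (coloured circles) and after thinning to 5000 UMIs (grey squares). Right, summed level of the G2 and M phase list (filled circles) and the S phase list (open squares) in UMIs per 1000, by the Mki67 and Top2a count of the cell, with the threshold as a dotted line. Population 7 was highest at 16.9% and 8.14%, and the G2 and M phase level climbed at every step in each population.

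Across the genome, 10795 genes had at least 50 UMIs in both classes together. The ratio of a gene is its level in cycling over comparison cells, pooled over populations 1, 4 and 7 with each compared within itself. A gene was called if its ratio reached 2 or fell to 0.5 or less, with an interval that left out 1 and one direction in all 3 populations. By this limit 680 genes were higher, which is 6.30% of those measured, and 184 were lower, which is 1.70%. The median log2 ratio of all measured genes was 0.03.

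Nearly the whole replication list was higher. Of 47 S phase genes, 42 were higher and none lower, with a median log2 ratio of 2.43. Rrm2, the regulated subunit of the enzyme that makes deoxynucleotides, stood at 113, 99.8 and 182 CPM in cycling cells of populations 1, 4 and 7 and at 1.70, 1.65 and 2.01 CPM in the comparison. Its level was thus low in all comparison cells, and the ratio was 81.8 (60.8 to 110). Clspn, which couples the fork to checkpoint signalling, had a ratio of 42.4. Mcm5 stood at 117, 67.1 and 157 CPM beside 13.6, 14.2 and 28.5 CPM, a ratio of 5.58 (5.04 to 6.19). Pcna, the sliding clamp, stood at 221, 140 and 222 CPM beside 51.6, 51.4 and 56.5 CPM, a ratio of 3.68. For both genes population 4 was the lowest of the cycling classes. The 5 that missed the limit included Ubr7 with a ratio of 1.57, Casp8ap2 with 1.75 and Pold3 with 1.85, which was called higher without population 4 (log2 ratio 1.01).

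The G2 and mitosis list was higher by more. Of 59 genes 57 were higher and none lower, with a median log2 ratio of 4.14. Plk1, a mitotic kinase, stood at 40.3, 71.1 and 44.3 CPM beside 0.49, 1.10 and 0.50 CPM, a ratio of 77.8 (47.9 to 126). Ccna2, the cyclin of S phase and G2, had a ratio of 75.8, and Hmmr, a spindle protein, had 65.9. Cdc20 stood at 48.1, 103 and 57.5 CPM beside 2.43, 1.98 and 2.87 CPM, a ratio of 26.0 (20.3 to 33.4). Ccnb2 stood at 101, 187 and 96.3 CPM beside 12.9, 9.70 and 10.6 CPM, a ratio of 11.2 (9.81 to 12.8). Cdk1 had a ratio of 15.5, Birc5, which encodes survivin, 35.4, and Aurkb, a kinase of chromosome alignment, 28.1. Cdc20, Ccnb2 and Plk1 were highest in population 4, while the whole list summed to 9929, 11362 and 11400 CPM in cycling cells and was not. The S phase list summed to 3249, 2314 and 3964 CPM, lowest in population 4. Without population 7 the log2 ratio of Cdc20 was 5.35, beside 4.70 over all 3 populations. The genes that missed the limit were Gas2l3 with 1.53 and Ctcf, a chromatin architecture factor, with 1.89.

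All 17 replication-dependent histone genes were higher, and their median log2 ratio was 4.39. Hist1h1b, a linker histone, stood at 209, 249 and 266 CPM beside 5.11, 4.30 and 3.95 CPM, a ratio of 61.6 (50.6 to 75.0). Hist1h2ae had a ratio of 61.2 and Hist1h1a 47.9, and the lowest was Hist1h2bc at 2.40. The histone list summed to 1400, 1973 and 1826 CPM in cycling cells and to 140, 91.2 and 129 CPM in the comparison. Histone genes are near-identical copies, so reads can be split between them and single members are less certain than the sum. Their messages mostly lack a poly(A) tail, and the labels give polyA RNA as the molecule.

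The genes that start the cycle were split by role. Of 13 measured cyclins, kinases and factors of G1, 7 were higher and none lower, and the median log2 ratio was 1.13. The factors that act late stood far apart, with a ratio of 82.3 for the repressor E2f7, 50.7 for Mybl2 and 35.1 for Foxm1, an activator of mitotic genes. On the log2 scale E2f7 was 6.36, and 5.30 without population 7 or 6.95 without population 1, and Foxm1 was 5.13, and 5.74 without population 7. The activators E2f1 and E2f2 had 2.46 and 2.19, the kinases Cdk2 and Cdk4 3.10 and 2.22. The D-type cyclins, which pass growth signals to the cycle, did not reach 2-fold. Ccnd1 stood at 341, 332 and 377 CPM in cycling cells and 182, 240 and 328 CPM in the comparison, a ratio of 1.25 (1.19 to 1.30). Ccnd3 had 1.35 and Ccnd2 0.92 (0.84 to 1.01), Cdk6 1.07 and Myc 1.16. Against comparison cells of the same depth, the log2 ratios of Cdk4 and E2f1 were 0.99 and 0.93, just under the limit, and that of Cdk4 was 0.95 without population 7.

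Inhibitors of the cycle did not form a low group. Of 23 genes 5 were higher and none lower, with a median log2 ratio of 0.02. The higher ones were Cdkn3 (ratio 12.1), Cdkn2a (7.70), Cdkn2c (6.66), Cdkn2d (3.68) and Rbl1 (3.43). Cdkn1a, which encodes p21, stood at 133, 281 and 269 CPM beside 244, 219 and 236 CPM, so it was lower in cycling cells of population 1 and higher in those of 4 and 7. Cdkn1b, which encodes p27, had a ratio of 0.96 (0.87 to 1.06). The anti-proliferative genes Btg1 and Btg2 had 0.66 and 0.61. With at least 6 UMIs of Mki67 and Top2a, Btg2 was called lower, at a log2 ratio of -1.06.

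Genes that supply nucleotides and chromatin were partly higher. Of 14 nucleotide synthesis genes 7 were higher and none lower, with a median log2 ratio of 1.00. Tk1, thymidine kinase, stood at 196, 149 and 268 CPM beside 5.84, 6.95 and 15.1 CPM, a ratio of 19.0 (16.8 to 21.5). Dut had a ratio of 6.44, while the one-carbon enzyme Mthfd2 had 2.15 and the purine enzyme Impdh2 2.08. The last 2 calls end under alternatives: the log2 ratio of Mthfd2 was 0.88 after thinning and 0.92 without population 7, and that of Impdh2 0.97 after thinning and 0.95 at matched depth. Of 23 chromatin and RNA genes of growing cells 12 were higher and none lower, with a median log2 ratio of 1.07. They included Hmgb3 (ratio 10.5), Ezh2, the Polycomb methyltransferase (5.74), Hmgn2 (3.37), Dnmt1, the maintenance DNA methyltransferase (3.24), and Ran (2.48).

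**Figure D2:**
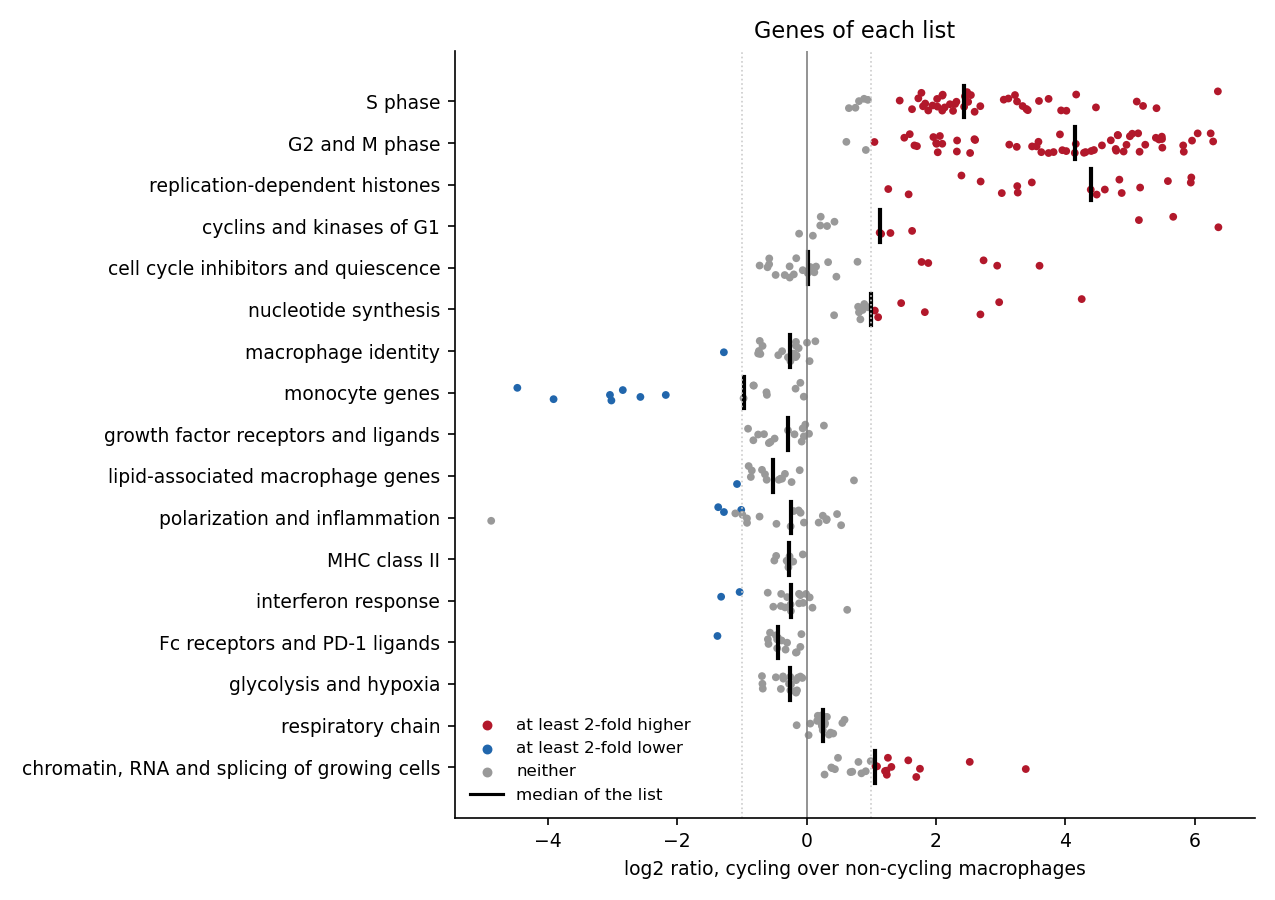
Log2 ratio of each measured gene of the 17 lists, cycling over comparison macrophages pooled over populations 1, 4 and 7. Each point is a gene, red where at least 2-fold higher, blue where at least 2-fold lower and grey where neither, with the list's median as a black line. One grey point of the polarization list at a log2 ratio under -4 is Retnla, which had no UMI in cycling cells, is drawn at its bound and rests on 0.233% of comparison cells of population 7. The cycle lists lie to the right, with medians of 2.43, 4.14 and 4.39 for S phase, G2 and M phase and histones, and the monocyte list to the left with -0.97.

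Each cycling macrophage was placed by its S phase and its G2 and M phase UMIs. In 33 of 343 cells (9.62%, 6.72 to 13.2%) the S phase list had more UMIs than the G2 and M phase list: 7 of 43 in population 1, 4 of 78 in population 4 and 22 of 222 in population 7. These are shares of 16.3% (6.81 to 30.7%), 5.13% (1.41 to 12.6%) and 9.91% (6.32 to 14.6%), whose intervals overlap. The line of equal UMIs is set in part by the lists: macrophages with no UMI of Mki67 or Top2a also had more G2 and M phase than S phase UMIs, 2118 beside 710 CPM. The shares are thus no count of cells in S phase. Mki67 and Top2a, which chose the cells, are themselves known to peak in G2 and mitosis. The median S phase level was 2.27, 1.19 and 4.04 UMIs per 1000 in populations 1, 4 and 7, and the median G2 and M phase level was 9.24, 11.4 and 9.95. The median member of population 4 was thus lowest in S phase and highest in G2 and M phase genes. Cdc20, a late mitotic gene, had a UMI in 41.9% (27.0 to 57.9%), 56.4% (44.7 to 67.6%) and 42.8% (36.2 to 49.6%) of members. After thinning these shares were 26.8, 36.5 and 18.7%, beside 1.36, 0.735 and 1.22% of comparison cells. Over the 343 cells the 2 levels had a Spearman correlation of -0.04, a description of cells that share libraries and depth.

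**Figure D3:**
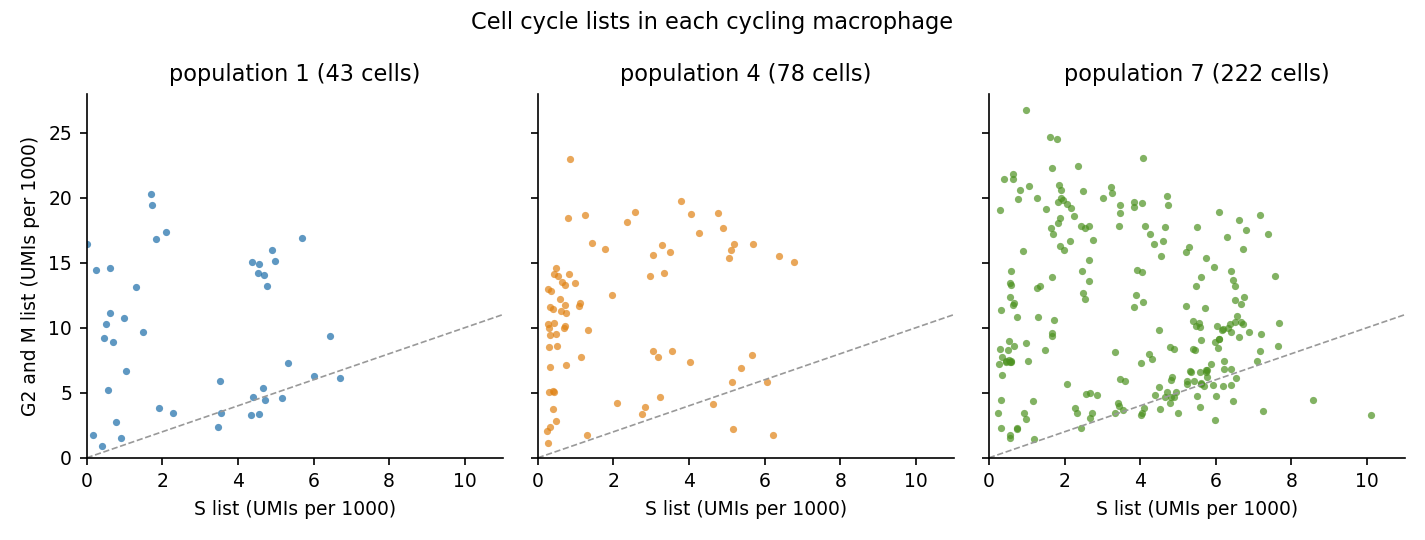
Summed S phase level (x axis) against summed G2 and M phase level (y axis) of each cycling macrophage, in UMIs per 1000 gene UMIs, for populations 1, 4 and 7; the dashed line marks equal levels. Most cells lie above the line, 33 of 343 below it, and many cells of population 4 lie at the left edge, where the median S phase level was 1.19.

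The genes of macrophage identity lay at or somewhat below the comparison. Of 19 measured, none was higher and 1 was lower, with a median log2 ratio of -0.25. Csf1r, the receptor for the growth factor CSF1, stood at 480, 526 and 545 CPM in cycling cells and 651, 678 and 640 CPM in the comparison, a ratio of 0.82 (0.79 to 0.85). The myeloid factor Spi1 had a ratio of 1.01 (0.97 to 1.04), Aif1 1.03, Cx3cr1 1.10 and the Fc receptor Fcgr1 0.89. Lyz2, the myeloid lysozyme, had 0.60, Cd14, the coreceptor for lipopolysaccharide, 0.60 and Mertk, a receptor for dying cells, 0.61. Without population 7 Cd14 was called lower, at a log2 ratio of -1.09. With at least 6 UMIs of Mki67 and Top2a, Mertk was called lower, at -1.08. The gene past the limit was Pla2g7, a phospholipase, at 209, 273 and 94.8 CPM beside 491, 637 and 242 CPM, a ratio of 0.41 (0.39 to 0.44).

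Monocyte genes had the lowest median of the 17 lists. Of 15 measured none was higher and 7 were lower, with a median log2 ratio of -0.97. Ly6c2, the Ly6C antigen of inflammatory monocytes, stood at 69.0, 86.9 and 11.4 CPM in cycling cells of populations 1, 4 and 7 and at 388, 270 and 164 CPM in the comparison. Every cycling value lay below every comparison value, and population 7 was the lowest in both classes. The level was 5.92-fold lower (5.26 to 6.68), and 1 cell gave 22.7% of the 269 Ly6c2 UMIs of the cycling class. In population 1, 1 cell held 36 of the 53 UMIs, and in population 4 single cells held 61, 38 and 34 of the 154. The cycling levels of these populations thus rest on few cells, which the interval does not cover. Without population 7 the log2 ratio was -1.91 and without population 4 it was -3.32, beside -2.57 over all 3. After thinning, 9.76, 9.46 and 4.57% of cycling cells and 24.8, 20.6 and 16.0% of comparison cells held a Ly6c2 UMI. The intervals of the classes overlapped in populations 1 (2.72 to 23.1% beside 20.0 to 30.2%) and 4 (3.89 to 18.5% beside 17.3 to 24.2%). They lay apart in population 7 (2.21 to 8.24% beside 13.5 to 18.7%). Plac8 stood at 28.6, 31.0 and 6.27 CPM beside 134, 158 and 102 CPM, 8.08-fold lower (6.71 to 9.73), with 33.3% of the 111 UMIs from 1 cell and a log2 ratio of -2.31 without population 7 beside -3.01. The thinned shares with a Plac8 UMI were 12.2, 6.76 and 1.83% beside 17.3, 18.4 and 15.1%. Their intervals overlapped in population 1 (4.08 to 26.2% beside 13.2 to 22.2%) and lay apart in populations 4 and 7.

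The other 5 lower monocyte genes had fewer UMIs. F13a1, a clotting factor subunit, stood at 2.60, 2.26 and 2.58 CPM beside 18.5, 22.3 and 20.2 CPM, 8.20-fold lower (5.24 to 12.8). Thbs1, thrombospondin, stood at 6.50, 11.8 and 6.82 CPM beside 170, 48.1 and 42.2 CPM, 7.15-fold lower (5.55 to 9.22). Ifitm6 was 4.51-fold lower (2.87 to 7.08), Chil3 had 4 UMIs in cycling cells and a ratio of 0.067 (0.024 to 0.18), and Hp had 1 UMI and a ratio of 0.045 (0.0058 to 0.35). Without population 7 both had no UMI in cycling cells, and the bounds of their log2 ratios were -1.92 and -1.74. Other genes of the list did not pass: Ccr2, the receptor that draws monocytes from the blood, had a ratio of 0.57, Fn1 0.57, S100a6 0.65, Cd44 0.89 and S100a4 0.97. Fn1 was just past the limit without population 4 and had a log2 ratio of -0.10 without population 7. Of Ccr2 the level was 121, 77.3 and 68.2 CPM beside 135, 100 and 147 CPM. Against comparison cells of the same depth the log2 ratio was -1.89 for Ly6c2 and -1.81 for Plac8, beside -2.57 and -3.01 over all comparison cells, and 5 of 12 measured genes of the list were lower. The part of depth in the rest was not tested.

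Macrophages with 1 or 2 UMIs of Mki67 and Top2a entered no ratio. Their Ly6c2 level was 77, 81.2 and 48.2 CPM in populations 1, 4 and 7 and their F13a1 level 9.41, 4.78 and 12.8 CPM, each below the comparison. F13a1 lay above the cycling cells in each population, and Ly6c2 did so in populations 1 and 7 only. Plac8 stood at 20.5, 26.5 and 25.4 CPM and Ccr2 at 95.8, 60.4 and 120 CPM, both below the cycling cells in populations 1 and 4. These macrophages were thus not between the classes in every monocyte gene.

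**Figure D4:**
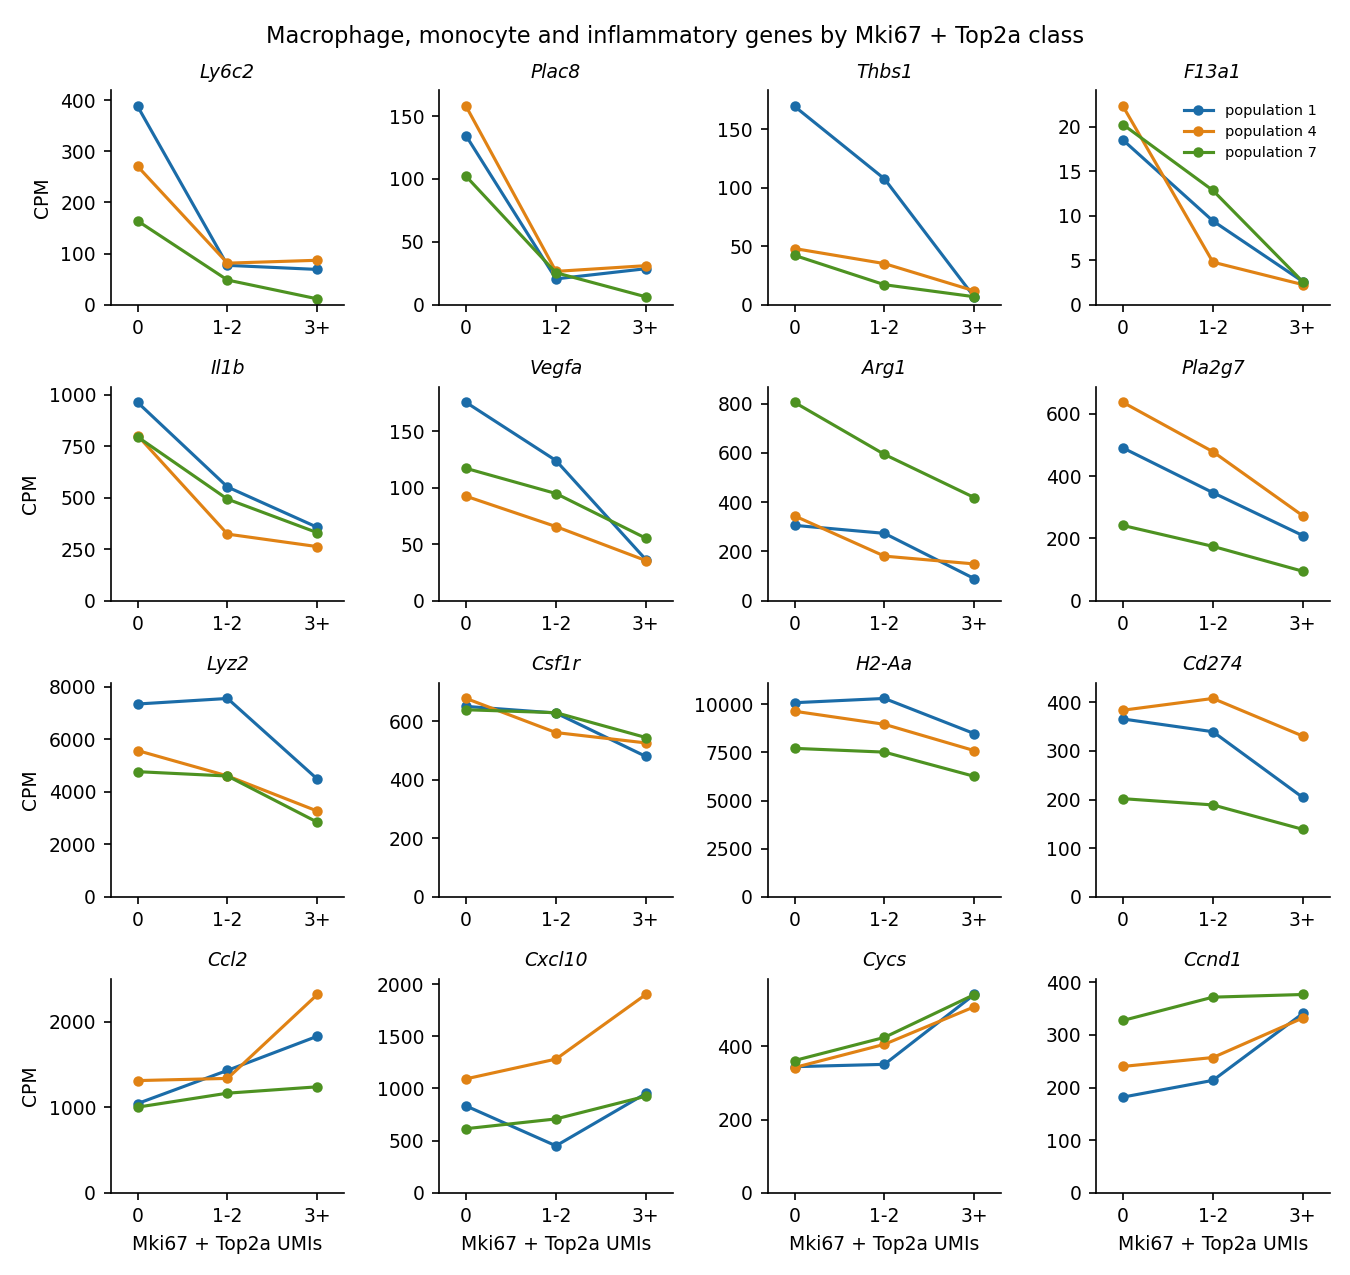
Level in CPM of 16 genes in macrophages with 0, 1 to 2 and at least 3 UMIs of Mki67 and Top2a, for populations 1 (blue), 4 (orange) and 7 (green); each panel starts at 0 and has its own scale. Ly6c2, Plac8, Thbs1 and F13a1 lie lower in cycling cells in each population, Csf1r and H2-Aa lie lower by less than 2-fold, and Ccl2 and Cycs lie higher without reaching 2-fold.

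Of 15 measured genes of growth factors and their receptors none was higher or lower, with a median log2 ratio of -0.29. The CSF2 receptor chains Csf2ra and Csf2rb had ratios of 0.88 and 0.67 and Il4ra 0.68. Of 14 measured lipid-associated macrophage genes, none was higher and 1 was lower, with a median log2 ratio of -0.52. Trem2, the lipid receptor, stood at 247, 265 and 401 CPM beside 300, 356 and 521 CPM, a ratio of 0.77. Apoe had 0.55 and the protease Ctsl 0.54. With at least 6 UMIs of Mki67 and Top2a both were called lower, at log2 ratios of -1.03 and -1.08. Ctsl was also called lower at matched depth (-1.02) and in macrophages with no T or B cell receptor UMI (-1.11). Spp1, osteopontin, went both ways, at 29.9, 216 and 121 CPM beside 38.2, 120 and 223 CPM. Fabp5, a fatty acid carrier, stood at 11.7, 20.9 and 27.7 CPM beside 66.2, 58.2 and 45.9 CPM, 2.10-fold lower (1.81 to 2.45). Its log2 ratio was -0.93 without population 1 and -0.94 without population 4, which ends the call, and -0.81 with at least 6 UMIs of Mki67 and Top2a. Without population 7 it was -1.75.

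Of 21 measured genes of polarization and inflammation, none was higher and 3 were lower, with a median log2 ratio of -0.25. The count was 5 without population 4 and 5 without population 7, 6 of 20 at matched depth and 7 with at least 6 UMIs of Mki67 and Top2a. Il1b, the inflammatory cytokine, stood at 356, 263 and 330 CPM beside 963, 802 and 796 CPM, 2.57-fold lower (2.47 to 2.68), and no value of the classes overlapped. Vegfa, the vessel growth factor, stood at 36.4, 35.5 and 55.3 CPM beside 175, 92.4 and 117 CPM, 2.42-fold lower (2.18 to 2.69). Arg1, the arginase of suppressive macrophages, stood at 89.8, 149 and 419 CPM beside 306, 344 and 805 CPM, 2.01-fold lower (1.93 to 2.10). Leaving out population 1 or 4 brought its log2 ratio to -0.98, which ends the call, as did thinning (-0.95), pooled sums (-0.81) and a C1q sum of at least 40 (-0.99). Nos2, its counterpart that makes nitric oxide, stood at 10.4, 22.0 and 17.7 CPM beside 59.8, 61.6 and 21.9 CPM, and its ratio of 0.503 narrowly missed the limit. It was called lower without population 7 (log2 ratio -1.73), by pooled sums (-1.19), scaled to the median gene (-1.02) and with at least 6 UMIs (-1.01). Hmox1, haem oxygenase, stood at 70.3, 131 and 65.8 CPM beside 211, 96.4 and 201 CPM, below the comparison in populations 1 and 7 and above it in 4. Without population 4 it was called lower, at a log2 ratio of -1.61. Retnla had no UMI in cycling cells and 21.4 CPM in the comparison of population 7, where 0.233% of the 858 cells held it, so a difference was not detectable in 222 cycling cells.

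No chemokine was called higher. Ccl2, which draws monocytes, stood at 1829, 2317 and 1238 CPM beside 1043, 1311 and 1001 CPM, a ratio of 1.45 (1.42 to 1.48). Ccl7 had 1.39 and Cxcl10, an interferon-induced chemokine for T cells, 1.55 (1.51 to 1.58), while Ccl8 had 0.53, with an interval of 0.48 to 0.59. Ccl8 stood at 27.3, 98.2 and 38.2 CPM beside 160, 104 and 85.2 CPM, and was called lower at matched depth (log2 ratio -1.87), without population 4 (-1.39), with at least 6 UMIs of Mki67 and Top2a (-1.45) and by pooled sums (-1.03). Of the 18 interferon response genes none was higher and 2 were lower, Rsad2 (2.50-fold) and Ifit1 (2.05-fold), with a median log2 ratio of -0.24. Without population 7 their log2 ratios were -0.82 and -0.63, which ends both calls, and that of Ifit1 was -0.92 without population 1, -0.87 after thinning and -0.76 at matched depth. Cxcl9 had 0.92, Isg15 0.81 and Irf7 0.76.

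None of the 8 MHC class II genes passed the limit, with a median log2 ratio of -0.28. H2-Aa stood at 8476, 7592 and 6256 CPM beside 10082, 9638 and 7711 CPM, a ratio of 0.81 (0.80 to 0.82). Population 7 had the lowest level in both classes. The list of Fc receptors and PD-1 ligands bears on antibodies such as those given here. Of 15 measured none was higher and 1 was lower, with a median log2 ratio of -0.44. The activating receptor Fcgr4 stood at 699, 527 and 508 CPM beside 969, 871 and 653 CPM, a ratio of 0.72 (0.70 to 0.75), Fcgr3 had 0.74 and the inhibitory receptor Fcgr2b 0.66. Fcer1g, the signalling chain of the activating receptors, had 0.94. Cd274, which encodes PD-L1, stood at 204, 331 and 139 CPM beside 366, 384 and 202 CPM, a ratio of 0.73 (0.69 to 0.77). Pdcd1lg2, which encodes PD-L2, stood at 5.20, 6.77 and 3.87 CPM beside 12.6, 25.1 and 7.32 CPM, 2.60-fold lower (1.84 to 3.66), on 37 UMIs in cycling cells. Without population 4 its log2 ratio was -0.99, which ends the call.

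No energy gene reached 2-fold. None of 18 glycolysis and hypoxia genes passed in either direction, with a median log2 ratio of -0.25, and Gapdh had a ratio of 0.96, Hk2 0.62, Bnip3 0.62 and Hif1a 0.63. None of 20 respiratory chain genes passed either, with a median of 0.25. There 19 of 20 lay above the comparison in each population and Uqcrh below it. Cycs, cytochrome c, stood at 541, 508 and 541 CPM beside 344, 342 and 361 CPM, a ratio of 1.50 (1.45 to 1.56), and Cyc1 had 1.47.

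Outside the lists, the highest ratios belonged to further genes of division. Pbk, a mitotic kinase, stood at 41.6, 31.6 and 51.1 CPM beside 0.24, 0.11 and 0.22 CPM, a ratio of 235 (94.6 to 586). Esco2, a cohesin acetyltransferase, had 148 (log2 ratio 7.21, and 5.79 without population 7 or 7.82 without population 1), the spindle gene Aspm 113 and the DNA glycosylase gene Neil3 96.8. The lowest was Mmp12, macrophage elastase, at 2.60, 3.38 and 4.43 CPM beside 18.0, 20.4 and 35.7 CPM, 7.55-fold lower (5.30 to 10.8), with 21.9% of its 32 cycling UMIs from 1 cell. At matched depth its log2 ratio was -2.64 but the populations no longer shared 1 direction, which ends the call. Ly6i, a Ly6 family gene, was 6.55-fold lower (5.03 to 8.54) and Kdm5b, a histone demethylase, 5.19-fold (3.64 to 7.39). Tnfrsf9, which encodes 4-1BB, was 4.35-fold lower (log2 ratio -2.12, and -2.79 without population 7), Slfn4 3.47-fold, Egln3, an oxygen sensor, 3.49-fold, and Ddit4, an inhibitor of mTOR signalling, 3.28-fold. Clec4n, which encodes the lectin Dectin-2, stood at 13.01, 28.8 and 31.2 CPM beside 60.3, 100 and 95.2 CPM, 3.24-fold lower (2.82 to 3.71).

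The same split was made in T cells, with at least 3 UMIs of the 3 Cd3 genes and at most 1 of C1q, to see where the division programme of macrophages differed. Cycling cells were 46 of 729 T cells in population 1 (6.31%), 24 of 473 in population 4 (5.07%) and 24 of 209 in population 7 (11.5%). Of 8695 genes measured there 559 (6.43%) were higher and 394 (4.53%) lower. As in macrophages the share was highest in population 7, with an interval (7.50 to 16.6%) that overlapped that of population 1 (4.66 to 8.33%). Among 8364 genes measured in both, the ratio was at least 2-fold larger in macrophages, with an interval of the difference that left out 1, for 317 genes (3.79%) and in T cells for 116 (1.39%).

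Most cycle genes were called larger in neither cell type, which does not show that their ratios were equal. In the S phase list 1 of 42 genes was larger in macrophages and 6 were larger in T cells, and in the G2 and M phase list 3 and 10 of 53. Over all 8364 genes 3.79% were larger in macrophages and 1.39% in T cells, so at the cells' own depth both lists leaned to T cells. The counts of the lists were not taken after thinning or at matched depth. The lists' median log2 ratios were 2.61 and 4.43 in T cells, beside 2.43 and 4.14 in macrophages, where more of their genes were measured. E2f1 had a ratio of 2.46 in macrophages and 12.3 in T cells, E2f2 2.19 and 6.44, the licensing factor Cdc6 5.64 and 75.3 (in macrophages a log2 ratio of 2.50, and 1.82 without population 7), Cdk1 15.5 and 58.2, and the tubulin Tuba1b 4.08 and 12.4. In comparison cells E2f1 stood at 25.3, 17.5 and 26.7 CPM in macrophages of populations 1, 4 and 7, and at 2.68, 1.96 and 6.69 CPM in T cells. Macrophages had the larger ratio for Rpa2 (5.81 beside 1.39), the centromere histone Cenpa (8.77 beside 3.41) and Dlgap5 (43.6 beside 15.1). Klf2, a factor of resting T cells, had 0.87 in macrophages and 0.26 in T cells. Fabp5 was lower in cycling macrophages and had a ratio of 3.08 in T cells. The classes of T cells were less alike in depth than those of macrophages, at medians of 11716.5, 14555 and 15799.5 UMIs for cycling and 5058, 5029 and 5773 for comparison cells. The excess of genes with the larger ratio in macrophages was not kept when depth was evened: the counts were 75 for macrophages and 74 for T cells against comparison cells of matched depth, and 139 and 172 after thinning to 5000 UMIs.

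**Figure D5:**
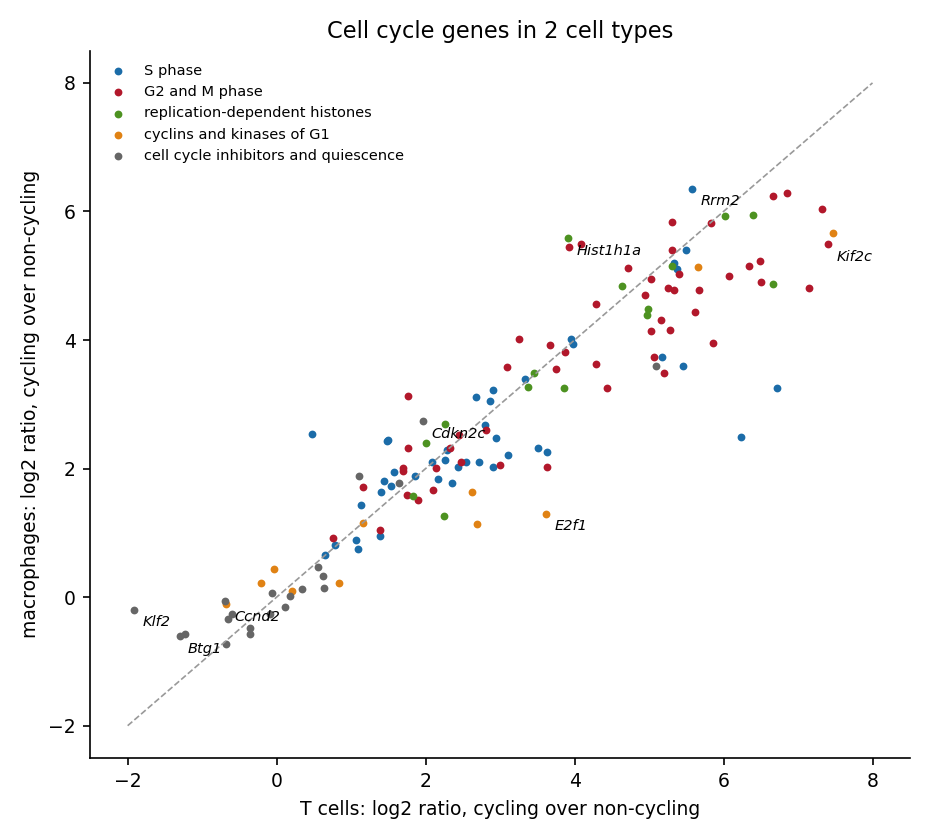
Log2 ratio of cycling over comparison cells for genes of the 5 cell cycle lists, in T cells (x axis) and macrophages (y axis), with the line of equal ratios dashed. Of the S phase genes 1 of 42 was called larger in macrophages and 6 in T cells, and of the G2 and M phase genes 3 and 10 of 53. E2f1 lies below the line, with ratios of 2.46 in macrophages and 12.3 in T cells, and Klf2 above it, with 0.87 and 0.26.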

How the data were processed

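Per the series' design text, live CD45+ cells of 9 samples from 3 mice were pooled, made into 5′ libraries (4 gene expression, 1 hashtag) and aligned by the authors to mm10-1.2.0; Cell Ranger 8.0.1 is named in the submitters' processing notes. The deposited table holds raw UMI counts of 27998 gene rows (27933 symbols, equal symbols summed) in 21624 barcodes; 0 barcodes occurred more than once. Cells needed at least 200 genes and at most 20% mitochondrial counts, which removed 93, and the rest held 128285378 UMIs, with a median of 3973. A cell took the hashtag whose antibody capture count reached 3 times that of the next, and 258 cells took none.

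UMIs were summed per class and population. Ratios are Mantel-Haenszel rate ratios over populations 1, 4 and 7 with Greenland-Robins 95% intervals, shares have exact Clopper-Pearson intervals, and a count of 0 was taken to allow 3 counts. With 1 pool and hashtags not tied to mice or sites there are no replicates and no p-values. Random thinning used 5000 UMIs per cell (2000 for the comparison with B cells). A class of matched depth took comparison cells near each cycling cell in UMIs. Doublets were called with Scrublet in scanpy 1.11.5 at an expected 8% (0.855% of cells called) and were left out only as an alternative. The method was tested on simulated counts drawn from class sums without spread between cells. That test cannot show how the intervals hold where UMIs cluster in single cells. Ighd, planned for the B cell gate, was not analysed here, and Fcer2a (CD23, at least 1 UMI, with at least 3 of Cd79a) replaced it. Trac, Trbc1, Trbc2, Ighm and Iglc2 were not analysed here.

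The members, lists and tests were chosen with earlier results of these data known. Any list or marker gene could be named, by preference the 4 highest and 3 lowest of a list, and outside the lists the 12 highest and 12 lowest ratios among genes with at least 200 UMIs. Alternatives were other scalings, thinning, matched depth, other limits on UMIs, C1q, Mki67 and Top2a, lymphocyte genes and hashtags, doublets, and each population left out. Analyses used Python 3.11.15, numpy 2.4.6, scipy 1.17.1, pandas 2.3.3 and matplotlib 3.10.9. Upstream sequences are from RefSeq (GRCm38.p6), matched by symbol. Some items are not reported here.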

Additional observations from a re-analysis of the deposited data

Results flagged for a closer look

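The table carries a further block of 9 multiplexing capture features beside the antibody capture features used to give cells a population. It was outside the comparisons above, and it held signal in the cycling macrophages: a median of 3632 UMIs per cell, beside 3385.5 for the antibody capture features. Giving populations by this block put all 2606 gated macrophages in the same population as before.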

How the results depend on the processing

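The counts of higher genes stayed within 1.5 times of 680 under every alternative, and no named gene that was called higher or lower reversed. Genes that were not called were not counted for this. Spp1, which was not called, had a log2 ratio of -0.40 over all 3 populations and 0.75 without population 7. The count of lower genes (184) was 92 against comparison cells of matched depth (9761 genes measured), 87 with at least 200 UMIs per gene (8865 measured) and 296 with at least 6 UMIs of Mki67 and Top2a, where the cause was not tested. Genes with the larger ratio in macrophages than in T cells (317) numbered 139 after thinning, 75 at matched depth and 70 with at least 200 UMIs, and those larger in T cells (116) numbered 172, 74 and 34 in the same order, so the excess in macrophages was not kept after thinning or at matched depth. The cycling shares of populations 1, 4 and 7 were 4.43, 3.74 and 8.14% after thinning, 4.44, 5.09 and 11.1% with at least 6 UMIs and 13.3, 12.7 and 21.9% with at least 2, and the share of members with more S than G2 and M phase UMIs was 5.80% with at least 6. Leaving out each population in turn gave 588 to 678 higher and 187 to 225 lower genes. Giving populations by the multiplexing capture features, an alternative chosen after seeing the data, changed none of these values. No paired analysis was possible because the labels give no replicate numbers, though every ratio compares the classes within each population. The limits are 1 pool, 3 populations with members, unknown mice and sites, and intervals for counting error only. Cycling cells are also deeper than the comparison.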
